A study of Mus musculus with 12 samples.

Results

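The proteins of the mitochondrial respiratory chain come from both the nuclear and the mitochondrial genome, and the transcripts of 65 nuclear genes for subunits of complexes I, II and III and of the ATP synthase (complex V) are described here. They were chosen by name alone, as the mouse symbols that start with Nduf, a letter from a, b, c, s or v and a number, with Sdha to Sdhd, and with every symbol that starts with Uqcr or Atp5. Of 37287 gene IDs, 71 carried such a symbol, and 6 pseudogenes were left out. The remaining 65 all reached 1 CPM (counts scaled to the library's total, in mega counts, M) in at least 2 libraries. They comprise 36 genes with complex I names, 4 of complex II, 8 of complex III and 17 with ATP synthase names. The names take in Ndufa4, a protein now assigned to cytochrome c oxidase (complex IV), and Atp5s, which is linked to assembly of the ATP synthase, and they leave out the true subunits Ndufab1 and Cyc1. Each of the 65 stood at 9.32 CPM or more in every GFP library, so none entered through the MyoD or Myf5 libraries.

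The study sequenced poly(A)-selected RNA of mouse embryonic fibroblasts that carry the genotype MyoD-/-; Myf5-/- in all groups, controls included. MyoD and Myf5 are transcription factors that commit cells to skeletal muscle, and each was put back with a lentivirus. All cells were then moved to differentiation medium and were collected 20 h later. The first of 2 count tables has 10 libraries: 5 given a lentivirus for GFP, 2 given MyoD (1x and 2x virus), 2 given Myf5 (1x and 2x virus) and 1 of untransduced cells. Of the GFP libraries, 4 were made at a multiplicity of infection (MOI) of 15, 30, 60 and 120 and 1 with 1x virus. The second table held 1 library with 1x of a virus labelled Chimera and 1 with 1x MyoD from a second batch of virus that was balanced against it. How 1x relates to the MOI values, what the Chimera protein consists of and how many embryos gave the fibroblasts are not given in the sources used here. Within a table every library carries its own label of virus and dose and nothing says that libraries came from separate cultures, so the p-values measure the spread between these libraries, dose included.

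Complex I takes electrons from NADH and complex II takes them from succinate, and both pass them by way of ubiquinone to complex III and then by cytochrome c to complex IV. Complexes I, III and IV pump protons, and the ATP synthase uses the resulting gradient to make ATP. Skeletal muscle is known for a high content of these complexes, whose nuclear genes are known to respond to the factors NRF1, GABP (also called NRF2) and ERR alpha and to coactivators of the PGC-1 family.

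Depth in mega counts (M) was 17.9 to 22.4 M for the 4 MOI libraries and 68.3 to 81.5 M for the other 6 libraries of their table. The MyoD, Myf5 and untransduced libraries were thus deeper than every GFP library but 1x GFP. The part of depth in their comparisons with GFP was not tested. The second table had 25.1 M for Chimera and 23.7 M for its MyoD library. Myod1 stood at 309 and 617 CPM in 1x and 2x MyoD and at 5.21 to 5.99 CPM in the other libraries of the first table. Myf5 stood at 149.5 and 249 CPM in 1x and 2x Myf5 and at 11.9 to 24.4 CPM in the others. All 10 fibroblast markers (such as Col1a1 and Vim) were detected, at a summed 25991 to 28758 CPM with GFP. Other cell types' markers were low. Macrophage markers, 3 of 5 of which reached the filter, summed to 11.2 to 14.9 CPM with GFP and 15.5 to 17.7 CPM with MyoD or Myf5, with Adgre1 at 0 in all 10 libraries. Endothelial markers (1 of 5 past the filter) summed to 2.19 to 5.63 CPM with GFP and 7.53 to 10.7 CPM with either factor, and neuronal and glial markers (1 of 4) to 6.38 to 15.3 and 18.8 to 25.7 CPM. Epithelial markers (0 of 5) summed to 1.04 to 2.63 CPM with GFP and 0.380 to 0.864 CPM with either factor, and adipocyte markers (2 of 5) to 3.79 to 8.18 and 2.75 to 5.83 CPM.

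MyoD against GFP asked how these transcripts change when MyoD is restored. Together the 65 genes took 0.732% of all counts with GFP and 1.06% with MyoD. Their summed level was 7531, 7274, 7301 and 6823 CPM at an MOI of 15, 30, 60 and 120, and 7683 CPM in 1x GFP. With 1x and 2x MyoD it was 9718 and 11491 CPM, so both MyoD libraries stood above all 5 GFP libraries. In edgeR's quasi-likelihood test over all genes, 62 of the 65 rose and 0 fell at a Benjamini-Hochberg adjusted p under 0.05, where 21.4% of all 13825 genes tested were called higher and 20.9% lower. The median log2 fold change of the 65 was 0.52, a 1.43-fold rise, against -0.03 over all genes tested. Gene by gene, both MyoD libraries exceeded all 5 GFP libraries for 59 of 65, against 23.1% of all genes. The 3 genes that were not called were Ndufb11 (log2 fold change 0.25), Atp5g2 (0.01) and Atp5s (-0.07).

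**Figure D1:**
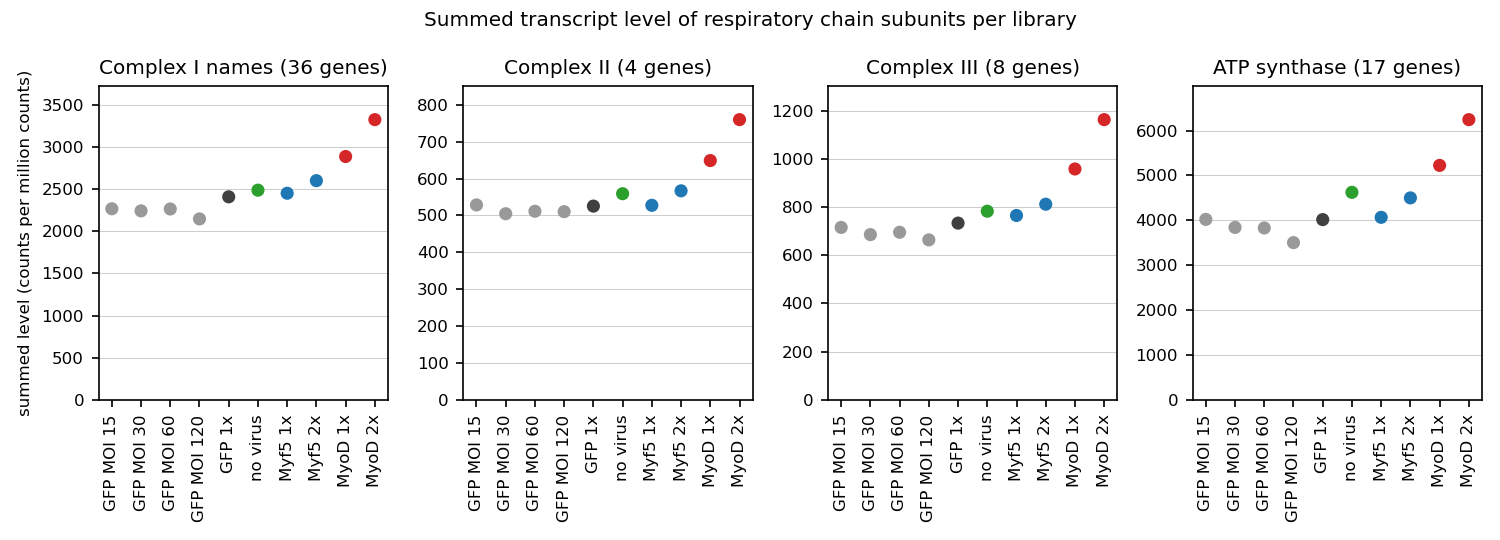
Summed level in CPM (vertical axes, from 0) of the subunit genes of each complex in each of the 10 libraries of the first table (horizontal axes), 1 point per library, with no error bars. In all 4 panels the 1x and 2x MyoD libraries are the highest, and 2x MyoD stands above 1x MyoD.

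The rises were spread over all 4 complexes and differed in size between them. Complex III had the largest median, 0.73 on the log2 scale, with 8 of 8 genes called. The ATP synthase had 15 of 17 called with a median of 0.59, complex II 4 of 4 with a median of 0.52, and complex I 35 of 36 with a median of 0.46. Within complex I, the 3 core subunits of the NADH-binding module and the 4 of the ubiquinone-binding module, which hold the redox centres, had medians of 0.65 and 0.66, and the 28 accessory subunits 0.42. Whether the complexes differ was not tested.

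Among the core subunits of complex I the largest rise was that of Ndufs3 (ENSMUSG00000005510.3), a ubiquinone-module subunit needed early in assembly. Ndufs3 read 70.7, 68.4, 71.5 and 68.9 CPM at an MOI of 15, 30, 60 and 120 and 66.3 CPM in 1x GFP, against 113 and 151 CPM with 1x and 2x MyoD. The groups did not overlap, and the log2 fold change was 0.99 ± 0.11 (SE, edgeR quasi-likelihood test, adjusted p = 0.00037), the largest of the 65. Ndufs3 overlaps Kbtbd4 on the other strand in GENCODE vM21, and reads of the pair cannot be told apart if counting ignored strand. Ndufv1, the subunit that binds NADH and FMN, read 75.6 to 82.6 CPM in the MOI libraries, 97.6 CPM in 1x GFP, and 129 and 146 CPM with MyoD. The log2 fold change of Ndufv1 was 0.79 ± 0.11, but 0.50 ± 0.10 against 1x GFP alone, which was itself above the MOI libraries. Ndufs8 behaved likewise, with 40.8 to 46.5 CPM in the MOI libraries, 60.8 CPM in 1x GFP and 71.4 and 78.9 CPM with MyoD (0.70 ± 0.14, and 0.31 ± 0.10 against 1x GFP alone). Among the other core subunits, Ndufs1 rose by 0.65 ± 0.08, Ndufs7 by 0.63 ± 0.10 and Ndufv2 by 0.46 ± 0.09 on the log2 scale. The limit given for Ndufs3 also holds for Ndufs1, which overlaps Eef1b2 on the other strand. Eef1b2 reached 1043 CPM.

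Of the 28 accessory subunits of complex I, 27 rose, by 0.23 (Ndufb3) to 0.68 (Ndufa11). The exception, Ndufb11, read 71.0 to 79.0 CPM in the MOI libraries, 88.6 CPM in 1x GFP and 87.9 and 89.6 CPM with MyoD, so that 1 GFP library lay between the MyoD libraries. The limit given for Ndufs3 also holds for Ndufb11, which overlaps Rbm10 on the other strand. Rbm10 reached 65.5 CPM. Ndufa4, counted apart, rose by 0.54 ± 0.10.

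Complex II is also the tricarboxylic acid cycle enzyme succinate dehydrogenase, and the mitochondrial genome encodes none of its subunits. Its 4 genes rose unequally. Sdhd, a membrane anchor, read 90.9, 88.5, 91.1, 93.1 and 90.7 CPM in the 5 GFP libraries, the last being 1x GFP, and 130.1 and 175 CPM in 1x and 2x MyoD (0.80 ± 0.11, adjusted p = 0.00088, edgeR). Sdha, the flavoprotein that oxidises succinate, read 223 to 233 CPM with GFP and 267 and 299 CPM with MyoD (0.36 ± 0.06). For both genes every MyoD library stood above every GFP library. The iron-sulfur subunit Sdhb and the second anchor Sdhc rose by 0.58 ± 0.10 and 0.47 ± 0.07.

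In complex III the iron-sulfur protein and the small subunits Uqcr11 and Uqcr10 rose most. Uqcrfs1, the Rieske iron-sulfur protein, read 61.5, 62.1, 62.2 and 59.3 CPM at an MOI of 15, 30, 60 and 120, 68.0 CPM in 1x GFP, and 100.4 and 127 CPM with MyoD (0.91 ± 0.10, adjusted p = 0.00036, edgeR). Uqcr11, a small subunit at the edge of the complex, read 66.0, 70.1, 66.1, 53.7 and 74.5 CPM in the same order and 104 and 131 CPM with MyoD (0.88 ± 0.13, adjusted p = 0.0011, edgeR). Neither gene overlapped between MyoD and GFP, although for Uqcr11 the GFP library at an MOI of 120 lay well under the others. Uqcr10, another small subunit, rose by 0.82 ± 0.13. The core proteins Uqcrc1 and Uqcrc2, which face the matrix, rose by 0.69 ± 0.11 and 0.50 ± 0.09. Uqcrb, which lies near the ubiquinone site, had the smallest rise of the complex, 0.29 ± 0.08.

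Per kb of merged exons, Atp5b and Atp5a1 had the highest levels of the 65, with means of 293 and 249 CPM per kb in the GFP libraries. Atp5b, the catalytic beta subunit of the F1 head, read 1314, 1250.5, 1232 and 1100.1 CPM at an MOI of 15, 30, 60 and 120 and 1312 CPM in 1x GFP. With MyoD, Atp5b reached 1848 and 2232 CPM, above every GFP library, a log2 fold change of 0.77 ± 0.11 (adjusted p = 0.00085, edgeR). The alpha subunit Atp5a1, which alternates with beta in the head, rose by 0.56 ± 0.09, and the central stalk subunit gamma (Atp5c1) by 0.51 ± 0.08. Atp5j2, the f subunit of the membrane part, read 74.3, 77.7, 74.9 and 65.2 CPM in the MOI libraries but 111 CPM in 1x GFP, and 135 and 157 CPM with MyoD. Its log2 fold change was 0.90 ± 0.18 against all GFP libraries and 0.40 ± 0.12 against 1x GFP alone, so its size depended on the control more than that of Atp5b, at 0.65 ± 0.15 against 1x GFP alone.

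The c subunit forms the rotating ring in the membrane, and 3 genes encode the same mature protein with different import sequences. They responded unequally to MyoD. Atp5g3 read 204, 192, 199.8, 185 and 215 CPM in the 5 GFP libraries (MOI of 15 to 120, then 1x GFP) and 317 and 418 CPM with MyoD, a log2 fold change of 0.94 ± 0.12 (adjusted p = 0.00059, edgeR). Atp5g1 read 69.5, 67.0, 69.3, 58.7 and 82.0 CPM with GFP and 101 and 117 CPM with MyoD (0.70 ± 0.12, adjusted p = 0.0025, edgeR). Atp5g2 read 207, 212, 203, 189.8 and 188 CPM with GFP and 187 and 201 CPM with MyoD, with a log2 fold change of 0.01 ± 0.06 (adjusted p = 0.92, edgeR). Atp5g3 and Atp5g1 thus stood apart from GFP in both MyoD libraries, while Atp5g2 overlapped it. Per kb of merged exons, Atp5g3 made up 40.6% ± 1.7 (SD, n = 5) of the c subunit transcripts with GFP and 54.7% ± 3.5 (SD, n = 2) with MyoD. The share of Atp5g2 was 53.1% ± 2.3 with GFP and 38.0% ± 3.2 with MyoD, and that of Atp5g1 was 6.27% ± 0.63 and 7.26% ± 0.24. Atp5g2 was thus the larger share in each GFP library and Atp5g3 in each MyoD library. The untransduced library also held more Atp5g3 (49.8%) than Atp5g2 (42.7%), as did 2x Myf5 (49.1% and 43.9%), so this order was not particular to MyoD. These shares rest on exon lengths of another annotation than the one the reads were counted on.

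**Figure D2:**
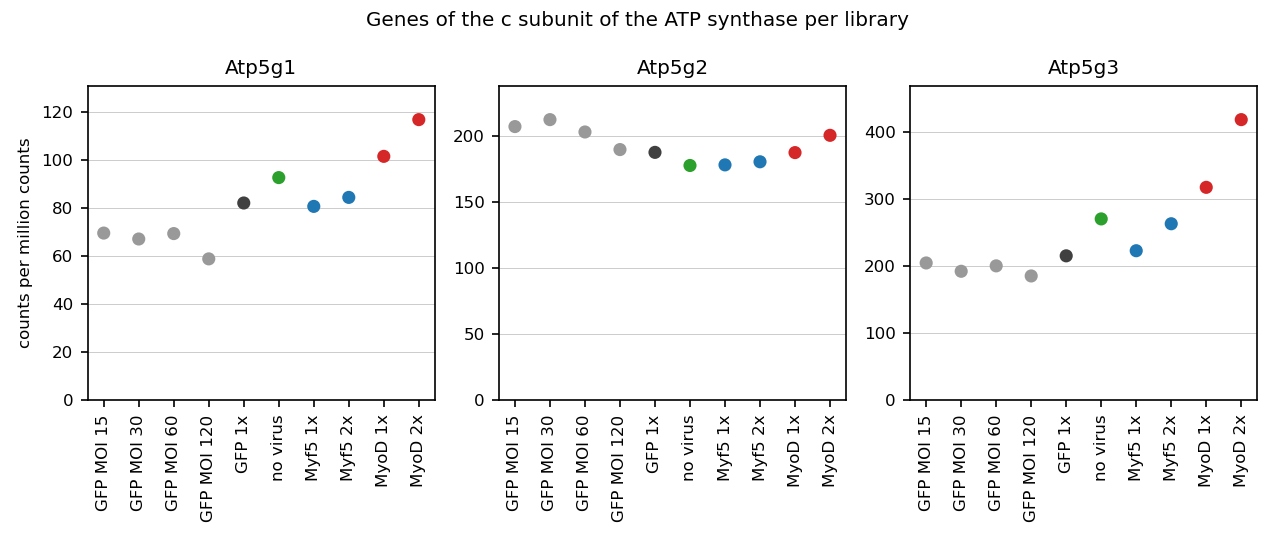
CPM (vertical axes, from 0) of the 3 c subunit genes in each of the 10 libraries of the first table, 1 point per library. Atp5g3 and Atp5g1 are highest in the MyoD libraries, while Atp5g2 lies between 178 and 212 CPM in all 10 libraries.

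The promoters of these 3 genes, and of Uqcr11 as the gene that differed most in the second table, are shown as the 120 bases before the annotated start, 5′ to 3′ on the gene's strand, from RefSeq on GRCm38.p6. Capitals mark the words GCGCATGC (or its reverse complement GCATGCGC), the core that NRF1 is known to bind, and CCGGAAGT (or ACTTCCGG), bound by GABP and other ETS factors.
Atp5g1, chr11:96075632-96075751, minus strand: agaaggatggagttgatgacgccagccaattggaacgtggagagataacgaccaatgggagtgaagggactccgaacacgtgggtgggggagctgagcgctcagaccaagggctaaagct
Atp5g2, chr15:102671048-102671167, minus strand: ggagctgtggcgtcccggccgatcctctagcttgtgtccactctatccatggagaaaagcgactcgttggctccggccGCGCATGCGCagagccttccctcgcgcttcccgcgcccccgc
Atp5g3, chr2:73911327-73911446, minus strand: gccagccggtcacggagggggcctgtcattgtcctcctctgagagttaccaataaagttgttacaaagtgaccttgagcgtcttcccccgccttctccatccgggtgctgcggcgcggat
Uqcr11, chr10:80406822-80406941, minus strand: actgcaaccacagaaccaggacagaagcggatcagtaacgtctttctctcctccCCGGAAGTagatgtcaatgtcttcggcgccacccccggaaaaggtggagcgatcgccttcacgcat
Among the c subunit genes shown, the overlapping pair of NRF1 words lay before Atp5g2. Over windows from 250 bases before to 50 after the start, 53 of the 65 genes had an entry, with 58 windows in all. The NRF1 word, on either strand, was in 15.5% of these windows, against 2.71% of all RefSeq promoter windows and 5.05% of those of genes past the filter. The 9 genes that held it were Atp5g2, Atp5k, Atp5l, Ndufa11, Ndufa6, Ndufa8, Sdhb, Uqcr11 and Uqcrc1, of which 8 rose with MyoD, Atp5g2 being the exception. Of the 44 genes with an entry and without the word, 43 rose. The YY1 word AAGATGGCG was in 12.1%, against 1.40% and 2.93%. The ETS word was in 6.90%, against 3.89% and 7.83%. The MyoD E-box word CAGCTG was in 8.62%, against 16.3% and 15.6%, and the SP1 word GGGCGG in 36.2%, against 35.7% and 61.9%. A match describes letters in a window and shows no binding.

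**Figure D3:**
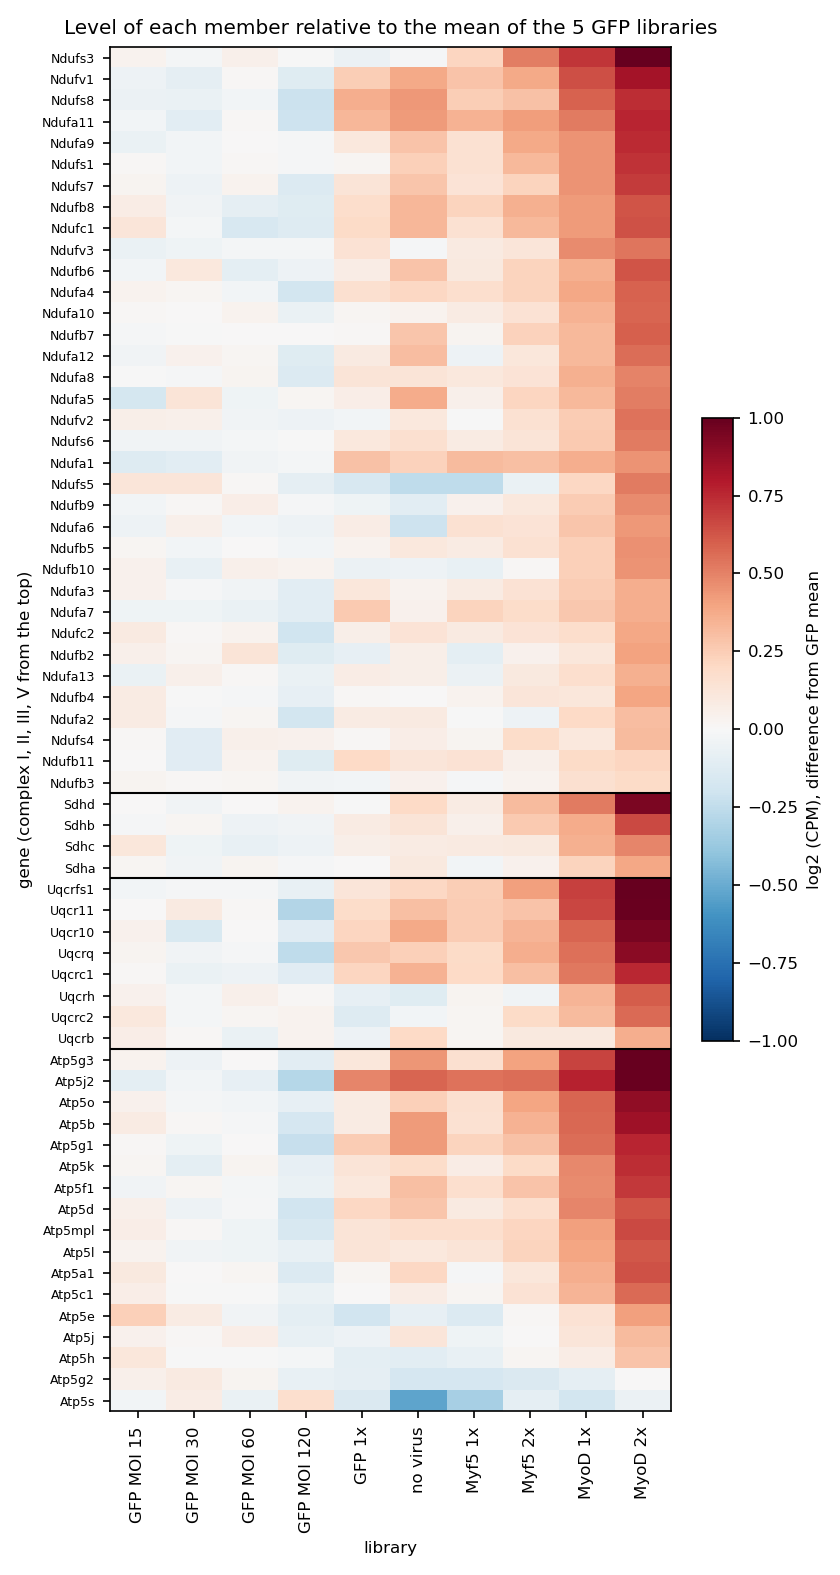
Colour gives each gene's log2 CPM minus its mean over the 5 GFP libraries, for 64 of the 65 genes (rows, by complex, ordered by their change with MyoD) in the 10 libraries of the first table (columns). The 2x MyoD column is the darkest red and the 1x MyoD column follows it, while Atp5g2 and Atp5s at the bottom stay near or below 0 in both. The scale ends at 1 in either direction.

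Beside these rises, the summed fibroblast markers read 18690 and 13587 CPM with 1x and 2x MyoD, below every GFP library, and the 8 muscle markers read 913 and 2705 CPM against 0.894 to 2.42 CPM with GFP. The summed macrophage, endothelial and neuronal markers given above were also higher in both MyoD libraries than in every GFP library. The part of these lists in the result was not tested. In bulk RNA, fewer cells of a type and less RNA per cell cannot be told apart. The call depends on the libraries used: 42 of 65 rose against 1x GFP alone, where 15.1% of all genes were called higher, and 36 rose without the 2x MyoD library, where 8.45% were. Without the 4 MOI libraries, which leaves 2 residual degrees of freedom, edgeR called 0 of the 65 and 0 of all genes. In that fit 37 of the 65 had an unadjusted p under 0.05, against 30.6% of all genes, and the median log2 fold change was 0.39.

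The dose comparison asked whether the 2x libraries differ from the 1x libraries across MyoD and Myf5. All 65 genes had a higher CPM in 2x MyoD than in 1x MyoD, where 44.3% of all genes did, and 59 of 65 were higher in 2x Myf5 than in 1x Myf5, where 50.0% did. The median ratio of 2x to 1x was 1.17 for MyoD and 1.06 for Myf5. Against 1x GFP, the median ratio was 1.21 in 1x MyoD and 1.41 in 2x MyoD. The order 1x GFP, 1x MyoD, 2x MyoD held for 62 of 65 genes, against 32.9% of all genes. Atp5g2, Atp5s and Ndufb11 were the exceptions.

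A common 2x over 1x term within both factors called 11 of the 65 higher and 0 lower by edgeR's quasi-likelihood test, where 4.03% of all genes were called higher and 3.34% lower. The median over the 65 was 0.19 on the log2 scale, against 0.01 over all genes tested. The largest of the 11 were Ndufs3 (0.38 ± 0.05), Sdhd (0.35 ± 0.06) and Atp5g3 (0.34 ± 0.06). Next among them came the peripheral stalk subunit Atp5o (0.29 ± 0.05), the accessory complex I subunit Ndufa9 (0.28 ± 0.05) and Uqcrfs1 (0.28 ± 0.06). The other 5 were Sdhb, Ndufb7, Ndufs1, Ndufv2 and Uqcrc2. Atp5g2 was at 0.08 ± 0.06 and was not called. Of its 4 residual degrees of freedom, 3 come from the GFP MOI libraries, and leaving out either MyoD library left 0 of the 65 called with 10 at an unadjusted p under 0.05 in each case, against 12.4% and 12.3% of all genes without 1x and 2x MyoD.

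Myf5 against GFP asked the same of the related factor. The summed level with 1x and 2x Myf5 was 7810 and 8479 CPM, both above the 5 GFP libraries, which reached 7683 CPM. The sums of complexes I, III and V were likewise above those of all GFP libraries, but that of complex II, at 527 and 567 CPM, overlapped the 505 to 528 CPM of GFP. None of the 65 genes was called by edgeR's quasi-likelihood test in either direction, where 3.81% of all genes were called higher and 2.28% lower. At an unadjusted p under 0.05 there were 17, against 28.5% of all genes, and DESeq2 called 6 higher, against 7.66% of all genes. Both counts are near the share over all genes. The median log2 fold change was 0.16, and 60 of the 65 were positive, against 49.5% of all genes. Both Myf5 libraries exceeded all GFP libraries for 24 genes, against 15.0% of all genes, and lay below all of them for Atp5g2 alone, against 16.6% of all genes.

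Ndufs3 had the smallest adjusted p of the 65 with Myf5, at 80.2 and 98.7 CPM in 1x and 2x Myf5 against 66.3 to 71.5 CPM with GFP. Its log2 fold change was 0.40 ± 0.12 (adjusted p = 0.071, edgeR). Uqcrfs1 read 74.1 and 83.3 CPM with Myf5 against 59.3 to 68.0 CPM with GFP, a log2 fold change of 0.36 ± 0.11. Atp5j2 had the largest log2 fold change, 0.55 ± 0.19, but its 115 and 117 CPM with Myf5 stood beside 111 CPM in 1x GFP. Against 1x GFP alone the median over the 65 was 0.05 with 0 called by edgeR, where 1.03% of all genes were called higher and 0.152% lower. There 1 of the 65 had an unadjusted p under 0.05, against 17.5% of all genes, and 17 of the 65 changed sign with that control. With 1x GFP left out, which leaves the MOI libraries as the control, 26 of the 65 were called higher, against 18.2% of all genes in that fit.

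**Figure D4:**
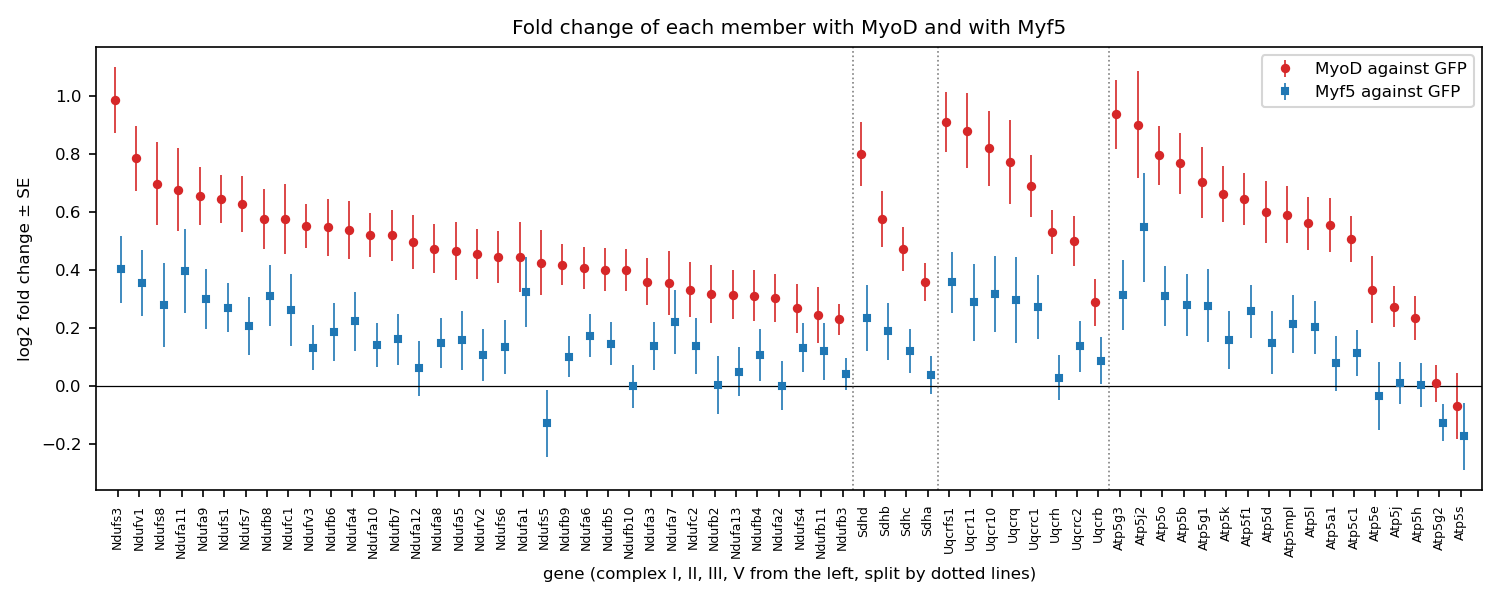
Log2 fold change against the 5 GFP libraries (vertical axis) with its standard error (bars), for MyoD (red circles) and Myf5 (blue squares), for 64 of the 65 genes (horizontal axis, by complex). The MyoD point lies above the Myf5 point for all 64 genes drawn. Both sets share the GFP libraries.

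The direct comparison of MyoD with Myf5 uses no GFP library in its contrast. All 65 genes had a positive fold change with MyoD, against 48.9% of all genes, by a median of 0.36 on the log2 scale (1.28-fold), against -0.01 over all genes tested. Of these, 12 passed edgeR's quasi-likelihood test and 0 were called lower, where 4.2% of all genes were called higher and 1.29% lower. Both MyoD libraries exceeded both Myf5 libraries for 62 of 65 genes, against 29.9% of all genes, the exceptions being Atp5s, Ndufb4 and Ndufs4. At the same dose label the summed level with MyoD was 1.24 times that with Myf5 for 1x, and 1.36 times for 2x. Equal labels did not mean equal transcript levels of the factors. Myod1 read 309 and 617 CPM with 1x and 2x MyoD, and Myf5 149.5 and 249 CPM with 1x and 2x Myf5.

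Atp5g3 led the comparison, at 317 and 418 CPM with MyoD against 222 and 263 CPM with Myf5 (log2 fold change 0.62 ± 0.15, adjusted p = 0.046, edgeR). Among the called genes Ndufs3 followed, at 113 and 151 CPM against 80.2 and 98.7 CPM (0.58 ± 0.14, adjusted p = 0.048, edgeR). The next called genes were Sdhd (0.57 ± 0.14), the accessory complex I subunit Ndufs5 (0.55 ± 0.14) and Uqcrfs1 (0.55 ± 0.13). Atp5k, the e subunit of the ATP synthase membrane part, came after them (0.50 ± 0.12). For these genes each MyoD library lay above each Myf5 library. The other called genes were Uqcrh (0.50), Atp5a1 (0.48), Ndufv3 (0.42), Ndufb10 (0.40), Atp5c1 (0.39) and Ndufa10 (0.38). Atp5b, at 0.49 ± 0.13, missed the threshold with an adjusted p of 0.064 (edgeR). Uqcr11 had a log2 fold change of 0.59, larger than that of Ndufs3, but was not called. It read 104 and 131 CPM with MyoD and 78.5 and 79.9 CPM with Myf5. With dose as a replicate block, which pairs 1x with 1x and 2x with 2x, 26 of the 65 were called higher, the 12 included, against 6.68% of all genes, and DESeq2 called 36 higher, against 8.41%. With 1 library left out at a time, the median over the 65 was 0.22 to 0.50 on the log2 scale. Leaving out the 2x MyoD, the 1x Myf5 or the 2x Myf5 library leaves 1 library in a group. The 12 calls of edgeR were then lost, as were nearly all calls over all genes. At an unadjusted p under 0.05 there were then 20, 26 and 47, against 8.77%, 13.9% and 18.0% of all genes. Summed fibroblast markers were 22431 and 18824 CPM with 1x and 2x Myf5, and muscle markers 42.5 and 135.6 CPM, so both lists moved with the factor as well, and their part was not tested.

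The untransduced library asked what the virus itself does. Its summed level of 8453 CPM was above all 5 GFP libraries and near that of 2x Myf5. None of the 65 was called against GFP by edgeR, where 5.83% of all genes were called higher and 2.52% lower. At an unadjusted p under 0.05 there were 21, against 29.8% of all genes. DESeq2 called 4 higher and 1 lower, against 9.58% and 8.54% of all genes. The median log2 fold change was 0.18 against all GFP libraries and 0.07 against 1x GFP alone. Atp5b read 1662 CPM without virus, above all GFP and Myf5 libraries and below both MyoD libraries (0.46 ± 0.14, adjusted p = 0.071, edgeR). Atp5g3 likewise read 269.9 CPM (0.48 ± 0.16), while Ndufs3, at 68.5 CPM, lay within the GFP range (0.03 ± 0.15). The group holds 1 library, which was assumed to vary like the others.

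Along the GFP MOI series 0 genes rose and 5 fell with each doubling of MOI (edgeR quasi-likelihood test, adjusted p under 0.05), where 4.03% of all genes were called higher and 3.41% lower. They were the F1 subunit Atp5e (by 0.11 ± 0.02 on the log2 scale), Atp5b (by 0.08 ± 0.02), Atp5mpl (by 0.07 ± 0.02), Ndufa4 (by 0.07 ± 0.02) and Atp5a1 (by 0.07 ± 0.02). Atp5e read 90.0, 80.6, 74.5 and 71.1 CPM from an MOI of 15 to 120, and Atp5b 1314, 1250.5, 1232 and 1100.1 CPM, so both fell at every step. The median slope over the 65 was -0.03. Leaving out 1 library at a time gave 1 to 12 called genes. Without the library at an MOI of 120 there was 1, against 0.842% of all genes called lower.

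The 1x GFP library stood above the MOI series for 11 of the 65 (edgeR quasi-likelihood test, adjusted p under 0.05), with 0 below, where 12.2% of all genes were called higher and 12.1% lower. The 1x GFP arm is 1 library, which was assumed to vary like the other groups. The largest of the 11 were Atp5j2 (0.66 ± 0.11) and Ndufs8 (0.50 ± 0.09). Next among them came the accessory complex I subunits Ndufa11 (0.47 ± 0.11), Ndufa1 (0.42 ± 0.07) and Ndufa7 (0.38 ± 0.06), and Atp5g1 (0.37 ± 0.11). The depth of 1x GFP was 81.5 M counts against 17.9 to 22.4 M in the MOI libraries, and its part in this difference was not tested.

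Chimera was set against the second-batch MyoD library within the second table, with 1 library each and therefore no test. Intervals given are exact 95% binomial (Clopper-Pearson) and cover counting error only. Myod1 read 22.1 CPM with Chimera and 324 CPM with MyoD, and Myf5 read 165 and 14.7 CPM. The part of these levels in what follows was not tested. The 65 genes summed to 7068 CPM with Chimera and 9082 CPM with MyoD, a ratio of 0.778. For 26 of the 65 the ratio of Chimera over MyoD was 0.8 or less, and for 0 the ratio of MyoD over Chimera was. Of 13092 genes past the filter, 17.3% and 15.8% met these bounds. The median ratio of the 65 was 0.819, against 0.987 over all genes. The ATP synthase had the lowest median ratio, 0.748, followed by complex III (0.790), complex II (0.804) and complex I (0.864).

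Uqcr11 had the lowest ratio, 0.535 (0.497 to 0.574), from 46.8 CPM with Chimera and 87.6 CPM with MyoD. Next came the F1 subunit delta, Atp5d, at 0.590 (0.564 to 0.617), the complex III subunit Uqcrq at 0.624 (0.573 to 0.680) and Atp5b at 0.632 (0.622 to 0.642). Atp5b read 1058 CPM with Chimera and 1675 CPM with MyoD. Atp5g3 stood at 0.656 (0.634 to 0.679) and the accessory complex I subunit Ndufc2 at 0.682 (0.616 to 0.755). All 3 c subunit genes were lower with Chimera, with Atp5g1 at 0.693 (0.647 to 0.743) and Atp5g2 at 0.748 (0.717 to 0.780), so Atp5g2 was lower here although it did not separate MyoD from GFP in the first table. Ndufs3, the largest riser with MyoD, was at 0.951 (0.901 to 1.004), with 106 and 111 CPM. Sdha, at 1.077 (1.039 to 1.116), and Ndufa13, at 1.069 (1.005 to 1.137), were the 2 genes whose interval lay above 1.

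**Figure D5:**
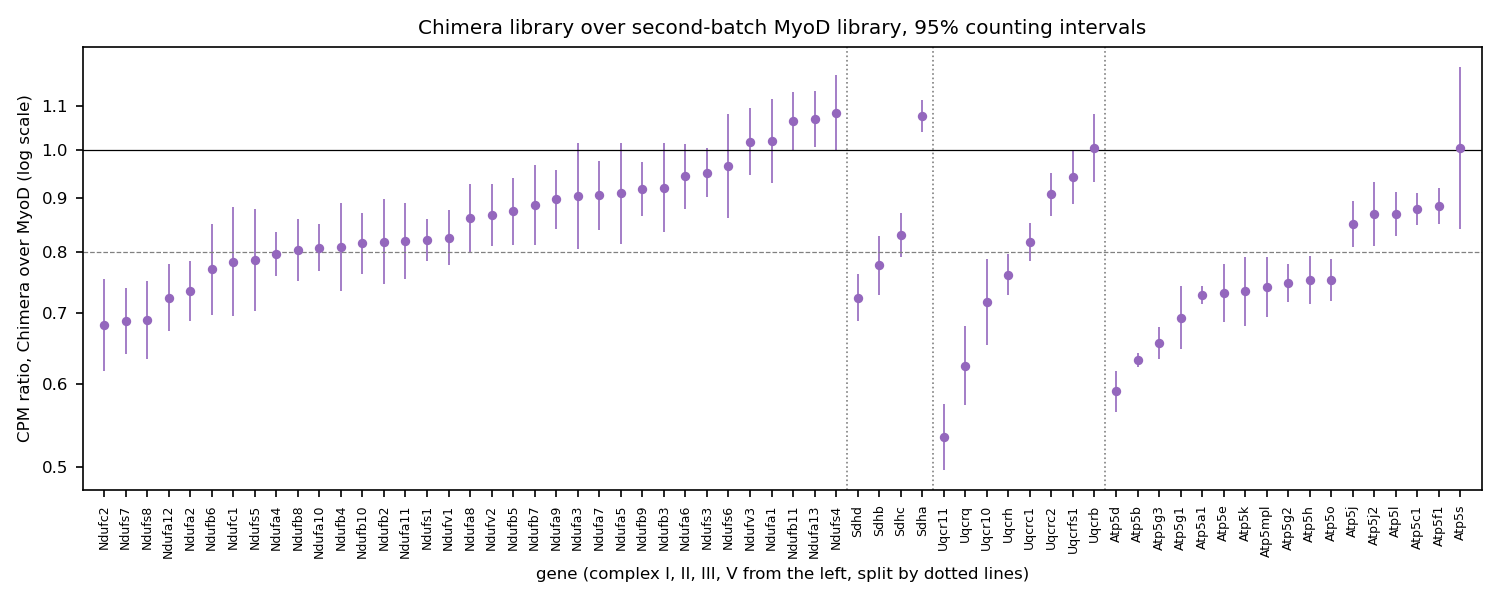
Ratio of CPM, Chimera over second-batch MyoD (vertical axis, log scale), with exact 95% binomial intervals (bars), for 64 of the 65 genes (horizontal axis, by complex). The dashed line marks a ratio of 0.8, and 26 genes lie at or under it, from Uqcr11 at 0.535 upward.

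The 13 subunits encoded by mitochondrial DNA had counts in this table only, and none lay outside these bounds, with a median ratio of 0.951 and a range of 0.904 to 1.05. Cytosolic ribosomal protein genes, another set of short and abundant messages, had 43 of 80 at a ratio of 0.8 or less and a median ratio of 0.790. A low ratio was therefore not particular to the respiratory chain. Summed muscle markers were 1100.2 CPM with Chimera and 2675 CPM with MyoD, and fibroblast markers 24375 and 19470 CPM, and their part was not tested. Across the 65 genes, the log2 ratio of second-batch MyoD over Chimera and the log2 fold change of MyoD over Myf5 had a Pearson r of 0.55 and a Spearman rho of 0.53. This is a description across genes, which are not independent replicates, and genes of a set share abundance and length.

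Other genes of the pathway were read from lists set by their known role, and each count with MyoD stands against the 21.4% of all genes called higher and 20.9% lower. All 14 tested of 16 listed nuclear subunits of cytochrome c oxidase rose with MyoD against GFP, with a median log2 fold change of 0.58. Cox8b, a subunit isoform of heart and skeletal muscle, read 0 to 0.112 CPM in the GFP libraries, 8.94 and 21.7 CPM in 1x and 2x MyoD and 2.27 and 3.14 CPM in 1x and 2x Myf5. It was called with both factors, and reached the filter only through their libraries. Cox7a1, another muscle isoform, rose with MyoD by 1.48 ± 0.18, from 1.40 to 1.72 CPM with GFP to 3.79 and 4.49 CPM. Of 19 mobile carriers and subunits that the names leave out, 11 rose and 0 fell, with a median of 0.31. Among those that rose were Cycs, cytochrome c itself (1.26 ± 0.14), and Cyc1, the cytochrome c1 of complex III (1.23 ± 0.14). Both were above any of the 65, and the largest log2 fold change of this list was 1.27.

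The counts with MyoD here again stand against 21.4% of all genes called higher and 20.9% lower. Of 26 assembly factors, 9 rose and 0 fell, with a median of 0.17. Among the 9 were Ndufaf4 for complex I (0.84 ± 0.12) and Sdhaf1 for complex II (1.19 ± 0.18). Of 13 tricarboxylic acid cycle enzyme genes 12 rose and 0 fell with a median of 0.61, among them the isocitrate dehydrogenase subunit Idh3a (1.05 ± 0.12). Mitochondrial ribosomal proteins had 38 of 77 higher and 2 lower, with a median of 0.26, and Mrpl12 (0.92 ± 0.12) and Mrpl49 (0.52 ± 0.09) had the smallest p. Cytosolic ribosomal proteins had 20 of 81 higher and 0 lower with a median of 0.14, including Rpl36 (0.26 ± 0.06), a count near the share over all genes. Against 1x GFP alone, 0 of these 81 were called, where 15.1% of all genes were called higher, with a median of 0.05.

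Among 13 tested regulators of mitochondrial biogenesis, 6 rose and 1 fell with MyoD, against 21.4% of all genes called higher and 20.9% lower. Ppargc1b, a coactivator of the PGC-1 family, read 3.75 to 4.36 CPM with GFP, 4.47 CPM without virus, 6.81 and 9.04 CPM in 1x and 2x Myf5, and 15.0 and 19.8 CPM in 1x and 2x MyoD. It rose by 2.11 ± 0.15 with MyoD and by 0.96 ± 0.15 with Myf5 (adjusted p = 4.4e-05 and 0.012, edgeR), and no library of 1 group overlapped another. Polrmt, the mitochondrial RNA polymerase, rose by 0.73 ± 0.10 with MyoD, and Sp1 fell by 0.22. Nrf1 (-0.00), Tfam (0.01) and Gabpa (-0.15) were not called. Ppargc1a stayed at or below 0.130 CPM in every library of the first table. With Myf5 against GFP, Cox8b and Ppargc1b were among the called genes of these 7 lists.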

How the data were processed

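The members and gene lists were chosen with earlier results of these data known. Per the submitters' processing notes, CASAVA 1.8.2 made the base calls and TopHat2 2.0.8 aligned the reads, with mm9 as the build. For the counting tool, its annotation and its use of strand the sources used here give nothing. The deposited values of the first table are expected counts, fractional in part (17 of the 65 members, tolerance 1e-06), which were rounded. Those of the second, as the authors deposited them, are whole-number counts. Of 37287 IDs in each, 32610 were paired with symbols through GENCODE vM21 names. The mitochondrially encoded genes are at 0 in the first table but make up 4.05% and 4.18% of the second, and the tables were therefore fitted apart.

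In R 4.3.3, edgeR 4.0.16 fitted genes with at least 1 CPM in at least 2 libraries, with TMM factors, over all 10 libraries of the first table in 4 groups. Quasi-likelihood tests were two-sided with Benjamini-Hochberg adjustment over all genes tested and a threshold of 0.05. The 2x over 1x dose term, the MOI slope and the 1x GFP control came from further fits. Standard errors were derived from the F statistic. The biological coefficient of variation was 0.157 over groups, 0.0743 in the dose fit and 0.0303 along the MOI series. The second table gave CPM ratios with exact binomial intervals. Alternatives used DESeq2 1.42.0, other normalization factors, no filter, a dose block and left-out libraries. The scripts were tested on simulated counts. Lengths per kb and exon overlaps come from GENCODE vM21 merged exons, and 21 of the 65 overlap an exon of another gene. Many of these genes have processed copies in the genome, and reads shared with a copy could not be traced.

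Genes were named by rule: core subunits by role, the 6 largest called changes per comparison and direction, and the 2 called genes with the smallest p of each other list. A few of the genes so picked go unreported here; they are left out of the plots by gene but counted in every total. Others, such as Ndufb11, Atp5s, Cox7a1, Nrf1, Tfam, Gabpa and Ppargc1a, were named after their values were seen.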

Additional observations from a re-analysis of the deposited data

Results flagged for a closer look

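Within the 5 GFP libraries, 8 of the 65 genes had 1 library that stood far from the other 4 by Dixon's criterion. Chance alone meets it in about 1 in 20 groups. The share of all genes that meet it in these libraries is not given here, so the count is not read as particular to the 65. In 6 of these the 1x GFP library was the highest: Ndufa1 at 48.7 CPM, Ndufa7 at 69.7 CPM, Ndufs6 at 24.5 CPM, Ndufs8 at 60.8 CPM, Ndufv3 at 66.6 CPM and Atp5j2 at 111 CPM. The library at an MOI of 120 was lowest for Ndufc2, at 25.6 CPM, and the library at an MOI of 30 for Ndufs4, at 36.6 CPM. None of the sums over a complex met the criterion. Beside these values, 1x GFP is the deeper library and carries another dose label, and the part of either was not tested.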

How the results depend on the processing

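Counts of the 65 genes called by edgeR moved most with the libraries used. Leaving out 1 library at a time gave 36 to 63 for MyoD against GFP (62 reported, 36 without 2x MyoD, where 13.4% of all genes were called), 0 to 26 for Myf5 against GFP (0 reported, 26 without 1x GFP, where 36.7% were) and 0 to 40 for MyoD against Myf5 (12 reported, 40 without 1x MyoD, where 15.3% were, and 0 without any 1 of the other 3 libraries). It gave 0 to 22 for the untransduced library (0 reported, 22 without 1x GFP, where 37.3% of all genes were called), 0 to 24 for dose (11 reported, 0 without either MyoD library, where 0.386% and 0.27% were, 24 and 21 without 1x and 2x Myf5, where 12.0% and 11.9% were) and 1 to 12 along the MOI series (5 reported, 12 without an MOI of 60, where 12.1% were). Without the 4 MOI libraries, an alternative chosen after seeing the data that leaves 2 residual degrees of freedom, 0 were called in MyoD against GFP and 0 in MyoD against Myf5. DESeq2 called 6 for Myf5, 36 for MyoD against Myf5, 5 for the untransduced library and 2 along the MOI series, where 15.5%, 12.7%, 18.1% and 3.64% of all genes were called. With no filter on low counts MyoD against Myf5 gave 6, and with dose as a replicate block 26, where 2.83% and 10.1% were. Labels give no replicate numbers, so the block pairs dose only. At 1.5-fold, 5 of the 65 genes were lower with Chimera and 0 were higher. The share of all genes at this bound is not given here, so the count has no background beside it. Of 446 recomputed values of called genes named in the text, 362 kept their call, 84 lost it and 0 changed sign. Atp5s rests on the fewest counts. With 1 or 2 libraries per factor, each at its own dose, spread between cultures was not measured.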
